A study of Bos taurus with 9 samples.

Results

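The 5 super-shedders (SS) described here are the steers of this cattle study whose fecal load of Escherichia coli O157 had been counted, and they are 5 of its 9 steers. All of the SS libraries were included, and none was chosen for its expression. Ordered by the load measured when the steers were identified, they were steer 287 with 5.4 log10 CFU/g of feces, steer 294 with 5.8, steer 274 with 6.7, steer 310 with 7.5 and steer 299 with 7.8. The days from that fecal sample to slaughter were 8, 10, 8, 4 and 10 in the same order. The other 4 steers (108, 152, 165 and 242) were negative for E. coli O157, are called non-shedders (NS) and have no load. They serve here only as a range beside the SS.

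All 9 were British x Continental feedlot steers on a barley-based finishing diet. RNA came from whole rectal tissue taken close to the recto-anal junction (RAJ) shortly after death, with 1 library per steer from frozen, powdered biopsies. Several features limit the gradient as a model. The tissue was taken days after the load was counted, when E. coli O157 was still countable in the feces of steer 310 alone and was found in the other SS after enrichment. Loads and days are those of the published animal description and not of the sample labels, each is a single value per steer without an error, and no steer was sampled at more than 1 time. In whole tissue, fewer cells of a type and less RNA per cell cannot be told apart.

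E. coli O157 colonizes the bovine rectum close to the RAJ, where the columnar epithelium of the colon meets squamous epithelium and lymphoid follicles lie under the mucosa. The bacterium attaches to epithelial cells, injects its own receptor and makes the host cell raise an actin pedestal beneath it. Adult cattle carry it without overt disease. The question asked of the SS is whether any gene, tissue marker or immune marker was ordered as the load was.

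Levels are CPM, reads on a gene scaled to a fixed library total, so a level compares 1 gene between steers and not different genes with each other. The SS libraries held 5412523 (steer 274) to 11807195 (steer 287) reads on genes, and a count of 0 allows up to 0.254 to 0.554 CPM (3 reads of the total, counting error only). The total did not follow load (Spearman rho -0.5, exact permutation p = 0.45, two-sided, n = 5). The 10 most abundant genes of a library took 19.9%, 16.2%, 16.8%, 11.5% and 13.7% of its reads in order of load (rho -0.8, exact permutation p = 0.133). Load and days to slaughter were nearly unrelated in rank (rho 0.05, exact permutation p = 0.933). With 5 steers there are 120 orders, so the smallest two-sided p of the exact permutation test is 0.0167 and is reached only by a gene in perfect ascending or descending order of load. limma and edgeR called none of the genes at that p after adjustment over the genes tested, while DESeq2 called ENSBTAG00000026163 and ENSBTAG00000002786.

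No gene was called for load by limma or edgeR. A gene was tested if 3 or more SS had 0.5 CPM or more of it, which held for 15125 genes. For these, limma's slope of log2(CPM + 0.5) on log10 CFU/g gave 0 genes at a Benjamini-Hochberg adjusted p below 0.05 (0% of genes tested), with a lowest adjusted p of 0.999975. At an unadjusted p below 0.05 there were 105 genes (0.694% of those tested, where 756.25 would be 5%), 100 with a positive and 5 with a negative slope. The split by sign was 33 and 12 after the median-of-ratios scaling described next, 34 and 18 in edgeR and 67 and 44 in DESeq2. The number at an unadjusted p below 0.05 was 2105 without steer 287, 356 without 294, 31 without 310 and 15 without 299, each with 0 genes called. edgeR's quasi-likelihood test on recovered counts also called 0 genes, with 52 at an unadjusted p below 0.05, while DESeq2 called 3.

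In rank order of load lay 144 genes. Of these, 140 ascended with load (0.926% of the genes tested) and 4 descended (0.0264%). Random orders would put a fraction of 0.0167 of genes in perfect order, ascending or descending, so the 144 genes (0.952%) are no excess. From steer 287 to steer 299, the ends of the gradient, the ascending genes had a median fold of 1.86, and 58 of the 140 (41.4%) were at least 2-fold higher. The order of load sets these folds above 1, so their sizes are a description and are not read against other genes. A rho of 0.9 or more, which allows 1 pair of neighboring steers to be exchanged, was reached by 660 genes (4.36%), and a rho of -0.9 or less by 61 (0.403%). At that rho the exact permutation p is 0.0833, the fraction that random orders would give, and the shares of both signs together were below it.

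The excess of ascending over descending genes depended on how the libraries were scaled. The median-of-ratios factors, which set the typical gene equal between libraries, were themselves in order of load: 0.940 in steer 287, 0.947 in 294, 0.95 in 274, 1.09 in 310 and 1.12 in 299 (rho 1, exact permutation p = 0.0167). In CPM as deposited, the median slope over all genes tested was 0.11 on the log2 scale per log10 CFU/g, and 74.6% of genes had a positive slope. After division by these factors the median slope was 0.01 and 51.5% were positive. The genes in order of load were then 54 ascending and 51 descending, so that the ascending share moved from 97.2% to 51.4%. Dividing by a factor that ascends with load can only remove ascending genes and add descending ones, and the 54 were all among the 140. At a rho of 0.9 or beyond, 262 ascended and 271 descended after scaling. Changes of single genes are therefore best read against the median slope of 0.11.

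**Figure D1:**
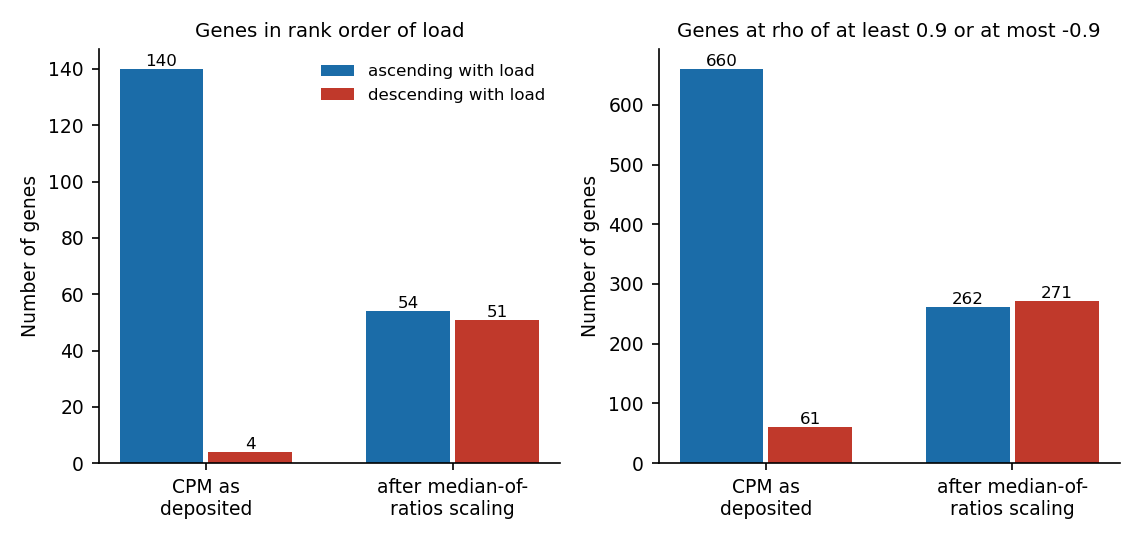
Number of genes in perfect rank order of load (left) and at a Spearman rho of at least 0.9 or at most -0.9 with load (right) over the 5 SS, for the deposited CPM and for CPM divided by the median-of-ratios factors. As deposited, 140 genes ascend and 4 descend, and after scaling the numbers are 54 and 51.

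Names were at hand for 2049 of the genes tested, and the lists below hold only named genes. Of the named genes, 68.5% had a positive slope as deposited and 36.7% after scaling, with a median rho of 0.1 and -0.1. Of the 144 genes in order of load, 6 had a name, all with a mean of at least 5 CPM. NKTR, a cyclophilin-domain protein first described on natural killer cells, was at 179, 256, 264, 313 and 365 CPM from the lowest to the highest load. Its slope was 0.34 ± 0.14 (SE) on the log2 scale and 0.23 after scaling, and it kept the ascending order under both. Steer 287 was below the NS, which ran from 233 to 287 CPM, and steers 310 and 299 were above them. NKTR was the 1 ascending gene with a name that kept its order after scaling.

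DDI2, a protease that activates the transcription factor behind proteasome gene expression, was at 70.2, 72.9, 87.8, 96.9 and 104 CPM. Its slope was 0.24 ± 0.12 (SE), and 0.13 after scaling. The 3 SS with the lowest loads were below the NS range of 94.0 to 102 CPM. NUB1, which brings NEDD8-tagged proteins to the proteasome, was at 76.5, 86.0, 88.9, 93.1 and 118 CPM, and most of that span came from steer 299, without which its slope was 0.12. MSL2, a subunit of a histone H4 acetylating complex, was at 63.9, 72.7, 77.4, 81.9 and 85.8 CPM, and 4 of the SS were below every NS. DENND4C, a regulator of vesicle traffic, was at 308, 336, 350, 381 and 398 CPM. The slopes of NUB1, MSL2 and DENND4C were 0.19, 0.15 and 0.14 with SE of 0.13, 0.12 and 0.13, and 0.09, 0.04 and 0.03 after scaling. None of these genes, nor DDI2, was in order after scaling.

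SHOC2, a scaffold of the RAS to ERK cascade, descended from 192 CPM in steer 287 through 170, 168 and 161 to 159 CPM in steer 299. Its slope of -0.09 ± 0.12 (SE) was smaller than its error, and most of the span lay between steer 287 and the rest. Without steer 287 the slope was -0.05. The order held after scaling, with a slope of -0.20.

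**Figure D2:**
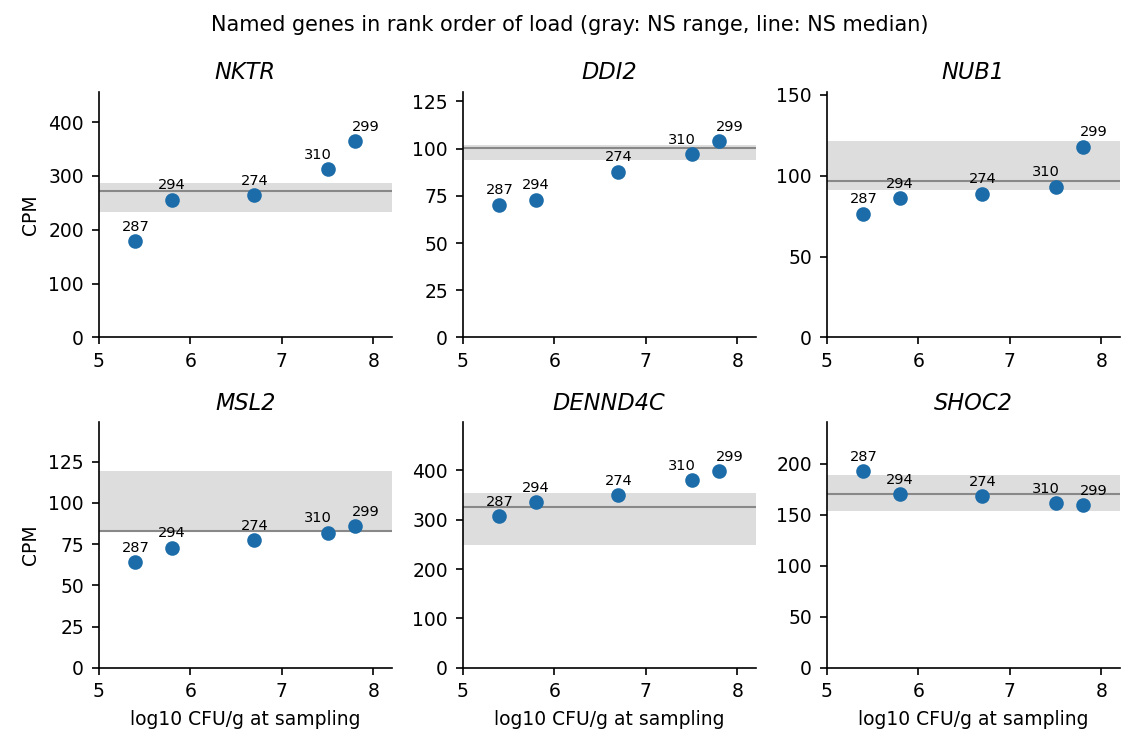
CPM of the 6 named genes in rank order of load against log10 CFU/g at sampling, with 1 labeled point per SS steer, the NS range in gray and the NS median as a line. NKTR spans the most, from 179 to 365 CPM, and SHOC2 is the one that descends.

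The 3 genes that DESeq2 called carry no name in the tables used here and had large spans from near 0. ENSBTAG00000026163 was at 0, 0.13, 5.91, 27.3 and 38.0 CPM in order of load, and DESeq2's adjusted p was 3.2e-06 against 0.999975 with limma. The NS were at 0, 29.9, 66.4 and 0 CPM, so the same gap between absent and present was found in steers without a load. ENSBTAG00000002786 was at 0.08, 0.67, 5.54, 13.2 and 13.7 CPM, and the NS ran from 0.19 to 14.3 CPM. Both kept their order after scaling. The third was at 1.52, 1.20, 131, 207 and 333 CPM, with NS from 23.0 to 623 CPM.

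Most variation between the SS followed another order. The first principal component of the 15125 genes held 64.3% of the variance and placed the steers in the order 294, 274, 299, 310 and 287, the same order as the mean of the pan-epithelial markers. In that order lay 1585 genes (10.5%). The second component (21.7%) had the order of the smooth muscle markers, with 467 genes (3.09%). The third component (9.51%) was in the order of load (rho -1, exact permutation p = 0.0167, with an arbitrary sign), which is also the order of the scaling factors. The number of genes in the order of goblet cell markers was 1065, of fibroblast markers 1053 and of total reads 288. Components and marker means are made from these same genes, so their counts are partly built in and are no test against the 144 genes (0.952%) in the order of load, which was measured apart from them.

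**Figure D3:**
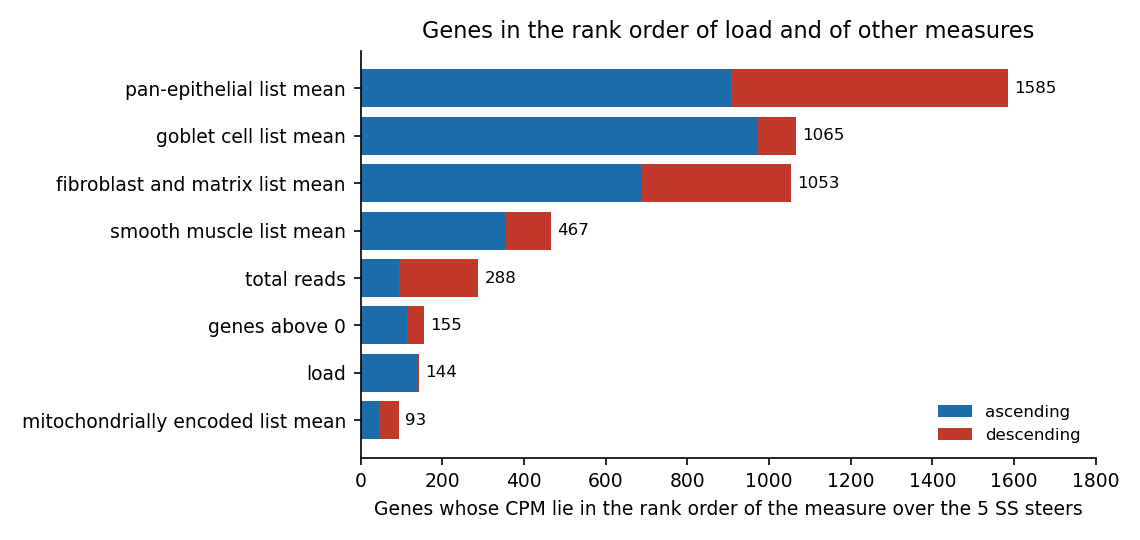
Number of genes whose CPM lie in perfect rank order, ascending or descending, of load and of 7 other measures over the 5 SS. The pan-epithelial mean orders 1585 genes, load 144 and the mitochondrially encoded mean 93, and list means are made from genes that are themselves counted.

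Epithelium was present in every SS, in very unequal amounts. The mean log2 level of 7 pan-epithelial genes was 9.17, 2.85, 5.79, 9.13 and 7.83 in order of load, and that of 7 absorptive colonocyte genes was 8.28, 1.94, 6.23, 8.05 and 6.24. EPCAM, an adhesion molecule of simple epithelia, was at 1136, 11.3, 115, 1171 and 572 CPM. CA1, the carbonic anhydrase of colonocytes, was at 562, 2.94, 90.5, 599 and 326 CPM. Steer 294 was thus nearly without epithelial RNA, and the steers with 5.4 and 7.5 log10 CFU/g were alike and highest. The slope of the pan-epithelial mean on load was 0.81 ± 1.41 (SE), and it turned to -0.23 without steer 294 and was 2.88 without steer 287. Squamous epithelium, the tissue of the anal side, was represented by COL17A1 at 0.80 to 20.0 CPM and EVPL at 2.20 to 110 CPM, too few genes to describe its share. Their mean had a rho of 0.8 with load and a slope of 0.47 ± 0.25 (SE), 0.29 to 0.65 with each steer left out. The median rho of the 2 genes was 0.3.

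Secretory cells had much the same pattern. CLCA1, a protein of goblet cell mucus, was at 3930, 40.8, 805, 5474 and 3531 CPM, and CHGA, a granule protein of enteroendocrine cells, at 853, 11.3, 39.4, 1730 and 562 CPM. PIGR, which carries IgA across the epithelium, was at 8955, 82.2, 389, 13499 and 8191 CPM. The goblet cell mean over 4 genes had a rho of 0.2 with load. None of its genes reached a rho of 0.9, which for 4 genes is near the 4.36% of all genes tested.

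Smooth muscle genes had a spread between the SS like that of the epithelium, with an SD of 2.66 for the mean log2 level of their list against 2.67 for the pan-epithelial list. Fibroblast genes varied less, with an SD of 1.35, and the lists had different orders. MYH11, the smooth muscle myosin, was at 853, 28258, 89.0, 2084 and 12755 CPM, highest in steer 294 and lowest in steer 274. COL1A1, the main fibrillar collagen, was at 364, 4185, 6110, 784 and 923 CPM, highest in those steers. The smooth muscle mean over 10 genes had a slope of 0.35 ± 1.46 (SE) and the fibroblast mean over 10 genes a slope of -0.02 ± 0.75 (SE), both with a rho of 0.2, and the latter was -1.07 without steer 287 and 0.35 without steer 294. The slope of the smooth muscle mean ran from -0.65 without steer 299 to 1.36 without steer 294. PECAM1, an endothelial adhesion molecule, was at 49.6, 348, 273, 106 and 137 CPM.

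**Figure D4:**
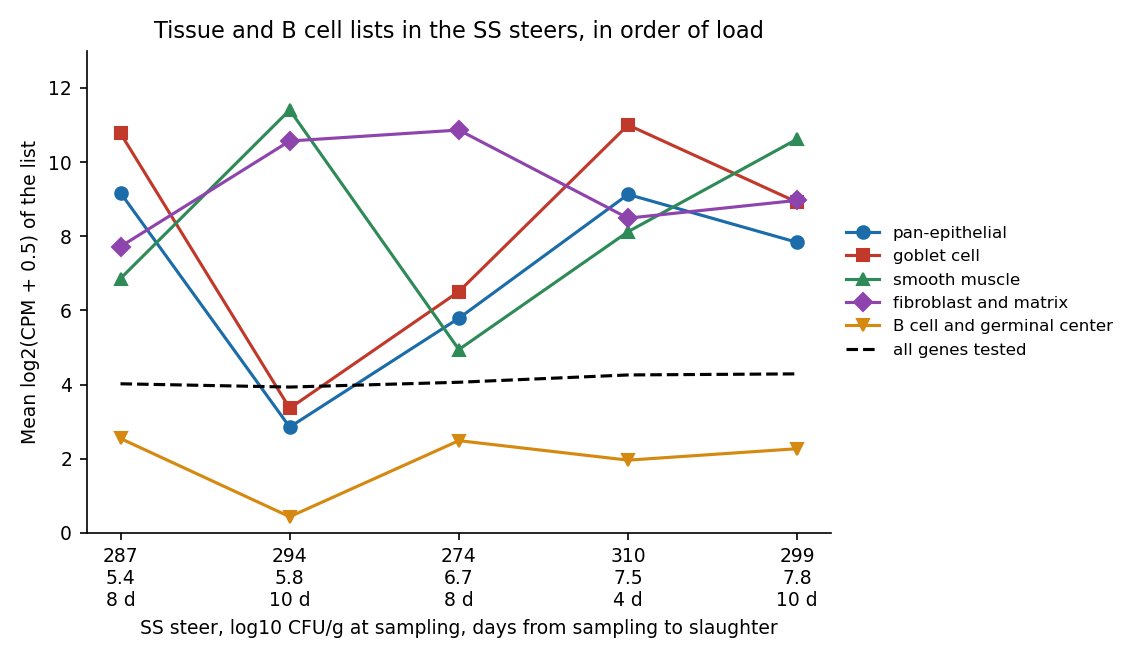
Mean log2(CPM + 0.5) of 5 marker lists and of all genes tested in each SS, with the steers from left to right in order of load and their log10 CFU/g and days to slaughter below. The pan-epithelial mean is 9.17 and 9.13 in steers 287 and 310 and 2.85 in steer 294, and the mean over all genes stays between 3.93 and 4.29.

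Many genes of the splicing machinery came near the order of load in CPM as deposited. The list of 45 splicing and nuclear RNA-binding proteins was drawn up after its members had been seen among the genes at a rho of 0.9, so its count is a description. Of its members, 10 had a rho of at least 0.9, 41 had a positive slope and the median rho was 0.6, against 4.36%, 74.6% and 0.2 over all genes tested. ACIN1, a nuclear protein bound to spliced RNA, was at 132, 241, 219, 296 and 331 CPM. PNN, a splicing regulator that like ACIN1 joins RNPS1, was at 76.1, 144, 105, 166 and 187 CPM. RBM25, which regulates splice site choice, was at 85.0, 124, 107, 138 and 182 CPM, and HNRNPH1, which binds G-rich RNA, at 516, 655, 640, 808 and 886 CPM. In all 4 of these genes steer 287 was lowest, steer 299 highest, and steers 294 and 274 exchanged.

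Their slopes were 0.43 ± 0.16, 0.40 ± 0.18, 0.33 ± 0.15 and 0.27 ± 0.16 (SE), and 0.32, 0.29, 0.22 and 0.17 after scaling. Without steer 287 the unscaled slopes of ACIN1 and PNN were 0.24 and 0.23. The mean of the list was 7.47, 7.49, 7.37, 7.79 and 7.82 on the log2 scale, with a slope of 0.15 ± 0.07 (SE) that was 0.04 after scaling. After scaling the median rho of the list was 0.1 and 30 of 45 members had a positive slope, against 0 and 51.5% over all genes. The NS means, 7.77 to 7.97, overlapped with the 2 SS of highest load and were above the other 3.

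Among interferon-gamma induced genes, WARS and IDO1 came near the order of load and most others did not. Interferon-gamma, made by T cells and natural killer cells, raises tryptophan-degrading and antigen-processing genes. WARS, the tryptophan tRNA ligase, was at 254, 123, 324, 427 and 697 CPM, with a slope of 0.74 ± 0.25 (SE). IDO1, which degrades tryptophan, was at 262, 92.2, 285, 285 and 643 CPM, with a slope of 0.66 ± 0.33 (SE). For both, rho was 0.9, steer 294 was lowest and steer 299 was above every NS (93.8 to 548 CPM for IDO1, 199 to 446 CPM for WARS). In IDO1, steers 274 and 310 were nearly equal, and after scaling its rho was 0.5.

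C3, the central protein of complement, was at 210, 60.9, 392.4, 377 and 961 CPM, with a slope of 1.11 ± 0.40 (SE). It was singled out from 14 complement genes after values were seen, and these had a median rho of 0.05 and 10 positive slopes as deposited, and -0.1 and 7 after scaling. Steer 299 was highest, and steers 274 and 310 were close to each other. Of 15 interferon-gamma induced genes with a name, a list also drawn up after values were seen, all 15 had a positive slope as deposited and after scaling, against 74.6% and 51.5% of all genes tested, and 2 had a rho of 0.9. Their median rho was 0.2 as deposited and 0 after scaling, the same as over all genes and above the 0.1 and -0.1 of the named genes. The list of interferon response genes, of which 2 were tested, had a mean of 8.06, 6.83, 8.15, 8.42 and 8.65 on the log2 scale, with a rho of 0.9 and a slope of 0.47 ± 0.28 (SE) that ran from 0.23 without steer 294 to 0.87 without steer 287. Antigen-processing members lay in the order of the epithelial or goblet cell markers: PSMB8, an immunoproteasome subunit, was at 196, 17.2, 57.5, 172 and 125 CPM and TAP1, a peptide transporter, at 171, 30.2, 90.5, 175 and 167 CPM.

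The mean of the 15 genes was 7.21, 5.27, 6.69, 7.39 and 7.27 on the log2 scale, with a slope of 0.42 ± 0.42 (SE), about as large as its error, that was 0.08 without steer 294 and 1.04 without steer 287. The slopes of WARS, IDO1 and C3 were 0.53, 0.37 and 0.72 without steer 294 and 1.14, 1.19 and 1.72 without steer 287, and that of IDO1 was 0.38 without steer 299. With the epithelial mean as a second covariate, an alternative added after values were seen, they were 0.63, 0.52 and 0.93. CXCL9, a chemokine that interferon-gamma induces, was at 12.7, 8.54, 41.4, 14.7 and 12.8 CPM, highest in the steer of middle load.

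**Figure D5:**
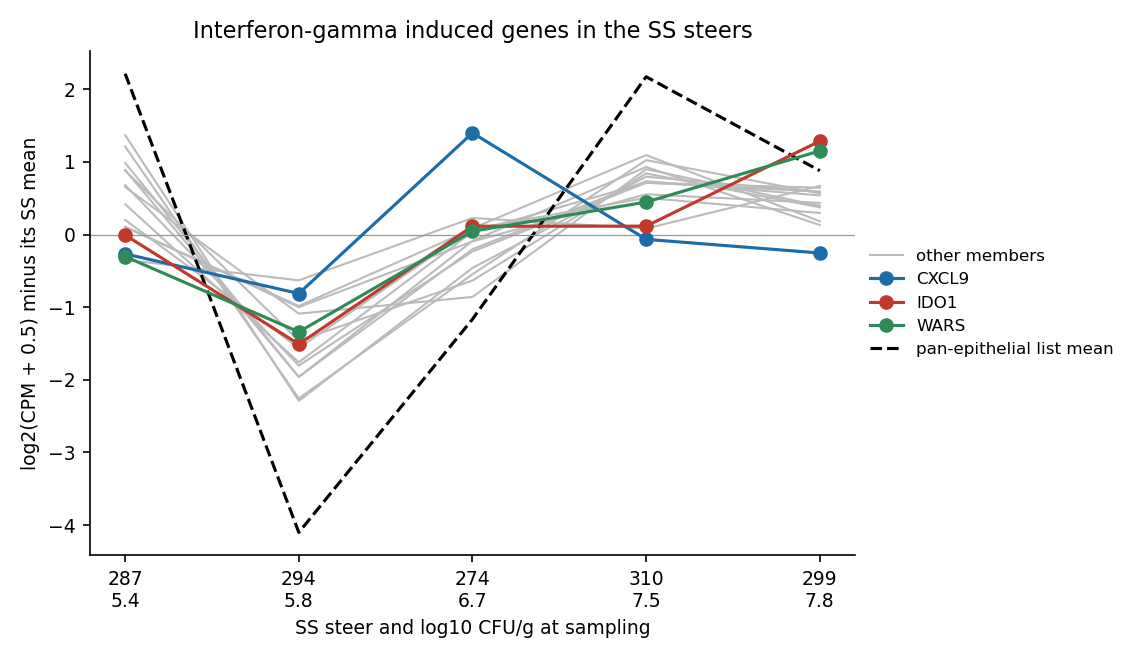
Level of 15 interferon-gamma induced genes in the 5 SS, as log2(CPM + 0.5) minus the mean of that gene over the SS, with the pan-epithelial list mean as a dashed line and the steers in order of load. Steer 294 is low in most genes and in the epithelial mean, and IDO1 and WARS are highest in steer 299 (643 and 697 CPM).

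Of 6 MHC genes, a list drawn up after values were seen, all 6 had a positive slope as deposited and after scaling, against 74.6% and 51.5% of all genes tested. A rho of 0.9 was found in 2, where 4.36% of all genes had 0.9 or more. The median rho was 0.1 as deposited and -0.15 after scaling, against 0.2 and 0 over all genes. The gene named HLA-DQB1 after its human counterpart, a chain of MHC class II, was at 71.1, 9.08, 136, 160 and 189 CPM (slope 1.18 ± 0.55, SE), while HLA-DRA, another class II chain, was at 689, 238, 1028, 735 and 533 CPM. MHC genes are polymorphic and have close copies, so reads of some alleles may be counted unequally, and the value of HLA-DQB1 is uncertain. Its slope was 0.57 without steer 294 and 2.05 without steer 287. The second at a rho of 0.9, named H2-T24 after a mouse class I gene, was at 76.7, 84.5, 167, 99.2 and 194 CPM, and is as uncertain. B2M, the light chain of class I, was at 4655, 603, 2212, 4478 and 2573 CPM and followed the epithelium.

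Of the 30 immune genes that the study lists and that were tested here, a list chosen on these samples for a lower level in SS than NS, none was in order of load, none reached a rho of 0.9 and none was called for load by limma, edgeR or DESeq2. Over all genes tested 0.952% were in order, 4.36% had a rho of 0.9 or more and 0.403% of -0.9 or less, so none of 30 is near those shares. A positive slope was found in 26 as deposited and in 26 after scaling, against 74.6% and 51.5% over all genes and 68.5% and 36.7% over the named genes. Their median rho was 0.3 as deposited and 0.1 after scaling, against 0.2 and 0 over all genes. Their mean was 3.29, 1.19, 2.78, 3.01 and 3.40 on the log2 scale, so that steers 287 and 299, at the ends of the gradient, were alike. The slope of the mean, 0.38 ± 0.45 (SE), was 0.00 without steer 294 and 1.03 without steer 287.

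B cell genes were low in all SS and lowest in steer 294. MS4A1, the B cell surface protein CD20, was at 14.1, 0.80, 14.6, 4.43 and 13.8 CPM against 31.3 to 206 CPM in NS. CXCL13, which draws B cells into follicles, was at 16.6, 0.80, 4.25, 2.34 and 5.63 CPM against 66.6 to 293 CPM. CCL21, which guides T cells and dendritic cells, was at 10.3, 16.8, 2.22, 9.03 and 8.87 CPM, with the steer of lowest epithelium highest. The mean of 8 B cell and germinal center genes was 2.54, 0.43, 2.49, 1.96 and 2.27 on the log2 scale (rho -0.3), and every NS was above every SS, at 3.40 to 6.02. Since the study picked several of these genes on these samples, that gap is not independent evidence.

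CD3G, a CD3 chain of T cells, had levels of 28.9, 2.67, 14.4, 20.0 and 17.3 CPM, in the order of the epithelial markers. JCHAIN, which joins IgA chains in plasma cells, was at 4992, 86.9, 59.3, 4021 and 4705 CPM, low in both steers with much stroma. The macrophage genes C1QA, C1QB and C1QC, parts of the first complement component, had their highest level in steer 274, where C1QA was at 399 CPM against 80.8 to 126 CPM in the other SS. S100A12, a protein of neutrophils, was at 15.2, 1.87, 7.94, 27.9 and 15.8 CPM, and S100A9, its relative, at 0.42, 0.13, 1.29, 0.78 and 2.25 CPM. The mean of these 2 genes was 1.93, 0.29, 1.96, 2.59 and 2.74 on the log2 scale, with a rho of 0.9 with load and a slope of 0.67 ± 0.38 (SE) that ran from 0.35 without steer 294 to 1.22 without steer 287. S100A9 rests on few reads in every SS, and 2 tested genes do not describe a cell type.

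Antimicrobial proteins were led by steers of high load in some genes. LYZ, lysozyme, was at 44.9, 10.4, 63.2, 56.5 and 96.2 CPM, with a rho of 0.8 and a slope of 0.76 ± 0.40 (SE), 0.34 without steer 294 and 1.39 without steer 287. BPI, which binds the endotoxin of Gram-negative bacteria, was at 76.0, 1.87, 18.5, 229 and 172 CPM, with a slope of 1.57 ± 0.92 (SE), 0.71 without steer 294 and 3.38 without steer 287. REG4, a lectin of colonic secretory cells, was at 1604, 16.95, 71.9, 2907 and 478 CPM, in the order of the goblet cell markers. None of the 5 tested antimicrobial genes reached a rho of 0.9, which for 5 genes is near the 4.36% of all genes tested.

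Genes of the actin pedestal and of adhesion had a mean that differed little along the gradient, while single members varied between steers. The mean of 16 such genes was 7.62, 7.21, 7.28, 7.63 and 7.44 on the log2 scale, with a slope of 0.03 ± 0.10 (SE) that was -0.03 without steer 294 and 0.17 without steer 287. None had a rho of 0.9 in either direction, which for 16 genes is near the 4.36% and 0.403% of all genes tested. The slope of the mean turned to -0.08 after scaling, and the members with a positive slope went from 10 of 16 as deposited to 2 of 16. Over all genes these shares were 74.6% and 51.5%, and over the named genes 68.5% and 36.7%. ARPC2, a subunit of the Arp2/3 complex that nucleates actin branches, was at 363, 158, 213, 367 and 289 CPM, and CTTN, cortactin, at 145, 114, 203, 185 and 124 CPM. EZR, which ties actin to the membrane of the brush border, was at 410, 160, 229, 402 and 263 CPM. NCL, nucleolin, to which the bacterial adhesin intimin can bind, was at 176, 115, 68.2, 137 and 169 CPM.

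Outside that list, ACTG1, cytoplasmic gamma actin, was at 1894, 1195, 1190, 1084 and 1158 CPM (rho -0.9, slope -0.23 ± 0.21, SE). Steer 287 stood apart from the others, and the slope was -0.05 without steer 287. EIF1, a factor of start codon selection, was at 109, 97.3, 102, 72.2 and 65.9 CPM, with a slope of -0.28 ± 0.13 (SE). LAPTM4A and TM9SF2, which are needed for making the Shiga toxin receptor Gb3, had a rho of -0.6 and 0.2. ACTB, GAPDH and RPLP0, which the study used as qPCR references, had slopes of -0.02, 0.03 and 0.02, all below the median gene.

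Days to slaughter were set beside load. limma's slope on days gave 0 genes at an adjusted p below 0.05 after Benjamini-Hochberg adjustment (0%), with 168 at an unadjusted p below 0.05, 53 with a positive and 115 with a negative slope. That split depended on the scaling and on the steers included. It was 87 and 86 after median-of-ratios scaling, 134 and 55 in edgeR, 343 and 124 in DESeq2, 585 and 118 without steer 310, 271 and 203 without steer 287, and 7 and 323 without steer 299. edgeR called 0 genes and DESeq2 called 5. Because steers 287 and 274 share 8 days and steers 294 and 299 share 10, the highest rho that a gene can reach is 0.95 (exact permutation p = 0.0667). With a positive sign 341 genes (2.25%) reached it and with a negative sign 430 (2.84%). Together these are below the fraction that random orders would give. The order of days has steer 310 alone at its low end and, at its high end, the pair with the most smooth muscle RNA.

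Of the genes called by DESeq2 for days, 2 had a name, and both were highest in steer 310. TFF2, a mucus peptide of mucosal repair, was at 418 CPM in that steer (4 days), 65.2 and 29.9 CPM in steers 287 and 274 (8 days) and 0.67 and 3.38 CPM in steers 294 and 299 (10 days). DNAJB1, a heat shock co-chaperone, was at 337 CPM against 119 and 98.5 CPM and 76.1 and 90.0 CPM, and all NS were between 92.3 and 117 CPM. DESeq2's adjusted p was 0.00471 for TFF2 and 7.0e-04 for DNAJB1, and limma's was 0.884 for both. Heat shock genes were not all highest in that steer. HSPH1 was at 590 CPM against 142 to 292 CPM in the other SS, and HSP90AA1 at 1865 against 663 to 1152 CPM. HSPB6, a small heat shock protein, was at 2.88, 44.0, 13.1, 2.86 and 16.3 CPM in order of load, and HSPB1, its relative, at 67.2, 209, 207, 82.2 and 159 CPM, both highest in steer 294.

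The SS hold 2 pairs of steers with equal intervals but different loads. Steer 274 exceeds steer 287 in load at 8 days, and steer 299 exceeds steer 294 at 10 days. Over all genes tested, 21.6% were higher in the steer of higher load in both pairs, 9.98% were lower in both and 10339 genes went opposite ways. WARS was higher by 0.35 and 2.49 on the log2 scale, C3 by 0.90 and 3.97, IDO1 by 0.12 and 2.80, and NKTR by 0.56 and 0.51. These genes were named for being in or near the order of load, which sets NKTR higher in both pairs and makes the same likely for the others, so their values are a description and not to be read against the share over all genes. The 10-day pair also differs in epithelium (11.3 against 572 CPM of EPCAM) and the 8-day pair in the opposite direction (1136 against 115 CPM). The part of tissue makeup in these differences was not tested.

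The NS were set beside the genes that ascended with load. limma called 0 of the 15125 genes between SS and NS after Benjamini-Hochberg adjustment (0%), with 576 at an unadjusted p below 0.05 (3.81%). Of these 576, 58 were higher and 518 lower in SS. That split depended on the scaling: it was 189 and 248 after median-of-ratios scaling, 253 and 346 in edgeR and 511 and 388 in DESeq2. edgeR called 0 genes, with 599 at an unadjusted p below 0.05, and DESeq2 called 14. Of the 140 genes that ascended with load, 3 had an unadjusted p below 0.05 between the groups. For 114 of the 140 (81.4%), the NS median lay within the range of the SS, against 86.7% of all genes tested. The SS median was below the NS median for 111 of them (79.3%), against 62.5% of all genes tested. In a gene that ascends with load the SS median is always the level of steer 274. The 2 shares are therefore a description and are not read against each other.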

How the data were processed

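Whole rectal tissue RNA of 9 steers, made into stranded, rRNA-depleted libraries, was mapped to UMD3.1. The submitters' processing notes also name TopHat2, HTSeq and edgeR, without versions. The authors deposited CPM for 24616 Ensembl genes per steer, and 0 columns were left unassigned. All deposited CPM were whole multiples of 1 read (100% of values, tolerance 0.01 reads), so counts were recovered. SS and NS came from the labels, and load and days from the published animal description. Genes reaching 0.5 CPM in 3 or more SS were tested with limma 3.58.1 (eBayes with trend) on log2(CPM + 0.5), with Benjamini-Hochberg adjustment. A slope on this scale understates changes of low genes. Rank order was tested by exact permutation, two-sided. edgeR 4.0.16 and DESeq2 1.42.0 were run on the recovered counts. R 4.3.3 and Python 3.11.15 (scipy 1.17.1, pandas 2.3.3, numpy 2.4.6, matplotlib 3.10.9) were used, and the limma step was tested on simulated data. Each steer is 1 library, no sequencing batch is recorded in the labels or methods, and p-values cover the spread between these steers.

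Gene names came from supplementary tables and covered 2052 identifiers, so lists are partial, and markers without an identifier were not analysed here. Symbols such as HLA-DQB1 are those of these tables. No sequences were used here, and some genes are not reported here on their own. The genes named were those in rank order of load with a name and a mean of at least 5 CPM, members of the marker and pathway lists, the study's genes and its qPCR reference genes. Unnamed genes, genes at a rho of 0.9 outside the lists, genes following days, and the splicing, interferon-gamma, MHC and complement lists were chosen after their values were seen. The members and lists were chosen with earlier results of these data known. Alternatives were other pseudocounts, filters, scalings and tools, load as rank, days as a covariate, a fit over all steers and the omission of each steer. The epithelial covariate and thinned libraries were added after seeing the data.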

Additional observations from a re-analysis of the deposited data

Results flagged for a closer look

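Of 94 sets of values (list means and library measures in each group, and the 6 named genes in order of load in the SS), 15, all of them list means, had a steer whose gap to its nearest neighbor, relative to the range of the group, exceeded Dixon's critical value, where chance gives about 1 in 20. Lists share genes and come from the same biopsies, so the sets are not independent and the 15 are not read as an excess. All values given are mean log2(CPM + 0.5). Among the SS, steer 294 was far below the others in B cell and germinal center genes (0.43), the study's immune genes (1.19), MHC genes (6.19) and complement (6.02). Steer 274 was far above them in macrophage genes (7.65) and immediate early genes (8.64). Among the NS, steer 242 was far below the others in absorptive colonocyte (5.21), pan-epithelial (5.75), goblet cell (7.24), plasma cell and IgA transport (9.09), keratin (5.91) and solute carrier genes (6.77). The same steer was far above the others in the T cell gene CD3G (6.74), lymphoid organ chemokines (7.68) and the study's immune genes (6.56). Steers 294 and 242 are thus the low ends of epithelium in SS and NS, and their immune genes stand at opposite ends.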

How the results depend on the processing

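The number of genes called for load was 0 in limma under all pseudocounts, filters, scalings, covariates and omissions of a steer tried, and 0 in edgeR, but 3 in DESeq2. For days it was 0 in limma and edgeR and 5 in DESeq2, and for SS against NS 0, 0 and 14. Omitting a steer gave 0 to 0 genes for load, 0 to 0 for days and 0 to 1 for SS against NS (1 without steer 108 or 299). The cause of DESeq2's added calls was not tested. Genes in order of load numbered 144 over 5 steers and 424 to 1312 over 4, where the smallest exact permutation p is 0.0833, since orders of fewer steers are easier to meet. Their number was 152 with no filter, 108 at 5 CPM in all SS, 105 after median-of-ratios scaling, 104 by a Pearson r beyond 0.95 and 111 with libraries thinned to 5412523 reads. Unadjusted p below 0.05 for load was found in 752 genes with the epithelial covariate, 239 in the fit over all steers, 39 with days as a covariate, 45 after scaling, 111 in DESeq2 and 185 with no filter. For days it was 467 in DESeq2, and without single steers 50 (294) to 703 (310). For SS against NS it was 899 in DESeq2 and 294 (without 242) to 1163 (without 287). All 344 alternative slopes of the 23 genes followed through the settings kept their sign. Most of these genes were named for being in or near the order of load in the same steers, so this was largely fixed in advance. Of the alternative slopes of list means, 335 of 369 moved by less than their error and 34 by more. Depth limits genes below about 0.554 CPM in steer 274. No paired analysis was possible because steer numbers are not shared between SS and NS.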

Other observations

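Immediate early genes, which respond within minutes to stress and handling of tissue, were high in steer 274, the SS of middle load with the shallowest library. FOS was at 40.3, 76.7, 721, 20.9 and 17.7 CPM in order of load, and DUSP1, a phosphatase that ends MAP kinase signals, at 49.5, 169, 898, 72.5 and 92.7 CPM. Mitochondrially encoded genes were high in the same steer, with MT-CO1, a subunit of cytochrome oxidase, at 20646, 11605, 31912, 16063 and 22614 CPM.

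The 11 genes that the study lists as higher in SS were each highest in steer 274 or steer 294, and they were chosen on these samples. CILP, a matrix protein of cartilage and stroma, was at 3.64, 112, 227, 24.3 and 24.5 CPM, and SFRP2, a secreted modulator of WNT signals, at 3.73, 200, 491, 19.3 and 33.5 CPM, as COL1A1 was. None of the 11 was in order of load, which for 11 genes is near the 0.952% of all genes tested. Their median rho was 0.2, the same as over all genes tested, against 0.1 over the named genes.

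ASS1, the enzyme that remakes arginine, was at 7.45, 38.0, 22.4, 71.9 and 48.9 CPM, with a slope of 0.92 ± 0.36 (SE) that was 0.41 without steer 287, the steer below every NS. EVL, an actin polymerization factor of the Ena/VASP family, was at 54.9, 54.3, 83.0, 88.6 and 115 CPM, with a slope of 0.43 ± 0.13 (SE). It was 0.38 to 0.48 with each steer left out and 0.32 after scaling, where the rho went from 0.9 to 0.8. All SS lay within the NS range of 52.7 to 204 CPM, and limma's adjusted p was 0.999975.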
